A study of Mus musculus with 6 samples.

Results

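Cell cycle genes were followed in RNA-seq libraries of mouse splenic CD8+ T cells, as 28 genes of G2 and mitosis (G2/M genes, Mki67 to Foxm1) and 27 genes of DNA replication and its preparation (S phase genes, Mcm2 to Hells). The 55 genes were a fixed list of symbols, named by function and chosen with earlier results of these data known. All 55 were found among the 35458 Ensembl gene identifiers of the deposited tables, each under a single identifier. The phases were compared with each other inside each library, and each gene was compared between the genotypes.

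A dividing cell switches on these genes in waves. E2F transcription factors raise the S phase set in late G1, so that the MCM helicase is loaded onto DNA and replication can start. The G2/M set follows later, when Foxm1, B-Myb and the MuvB complex bind promoters with a CHR element (cell cycle genes homology region), and its products build the spindle and drive chromosome segregation. Resting T cells keep both sets low, and activated CD8+ T cells divide quickly and raise them. In a bulk library a higher level can come from more dividing cells, from more RNA per cell or from a smaller share of other RNA. These cannot be told apart here.

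The 3 knockout (KO) libraries were made from splenic cells of Cd4creGlut10fl/fl mice, in which Glut10 is floxed, and the 3 control libraries from Cd4cre mice. Cre recombinase under Cd4 control, present in both genotypes, acts at the thymic stage that precedes mature CD8+ cells. Glut10, a hexose transporter encoded by Slc2a10, is the target, and the genotypes were set against each other to see what its loss changes. The labels give neither age nor sex, name no deleted exon and do not state that replicates were different animals, so p-values here cover only library-to-library spread, possibly technical. Lymphoma appears in the series title, but no label assigns a tumour to any mouse. Slc2a10 measured 0 FPKM (fragments scaled by gene length and library size) in all KO libraries and 0.0946, 0.0373 and 0.0373 FPKM in control 1, 2 and 3, at the limit of detection in both groups.

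The libraries differed in depth and in the RNA of other cells. Back-calculated library totals came to 3420291, 14683394 and 3004540 fragments in KO 1, 2 and 3, and 11840640 to 15036282 in the controls. Over the 28 G2/M genes this gave 3115, 40788 and 1919 implied reads in KO 1, 2 and 3, and 17767 to 32242 in the controls. Over the 27 S phase genes it gave 8056, 57222 and 5838 reads in KO 1, 2 and 3, and 31689 to 33495 in the controls. Receptor genes of smell and pheromone sensing (814 Olfr and Vmn genes), used as a gauge of background, had a mean FPKM of 0.992, 0.0188 and 1.05 in KO 1, 2 and 3, and 0.0312 to 0.0798 in the controls. The mean log2(FPKM + 1) of 14 T cell markers was 6.77, 7.36 and 6.64 in KO 1, 2 and 3, and 6.85, 5.27 and 4.98 in control 1, 2 and 3, so the defining markers of the labelled cell type were present in all libraries and lowest in control 2 and 3. Over 5 markers of granulocyte precursors, a dividing cell type, it was 3.52, 2.43 and 4.71 in KO 1, 2 and 3, and 3.56, 8.71 and 7.88 in control 1, 2 and 3. Over 11 neutrophil markers it was 1.63 to 3.55 in the KO libraries, and 3.54, 7.45 and 8.61 in control 1, 2 and 3. Over 9 erythroid markers it was 0.54 to 1.72 in the KO libraries, and 0.75, 5.33 and 4.44 in control 1, 2 and 3. Over 8 macrophage markers it was 4.09, 0.89 and 5.22 in KO 1, 2 and 3, and 3.50 to 4.18 in the controls. B cell markers were at 1.53 to 2.59 in the KO libraries and 0.76 to 1.56 in the controls. Germinal centre and plasma cell markers were at 1.69 to 2.47 in the KO libraries and 2.04 to 2.81 in the controls. Between 1 and 3 erythroid markers were at 0 in KO 1, 2 and 3 and control 1, and none of the T cell, neutrophil, precursor or macrophage markers was at 0 in any library. The part of other cells in the cell cycle values was not tested.

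The phases differ in their promoters, which the choice of genes did not use. RefSeq windows of 300 bases (250 before the start site and 50 from it, build GRCm38.p6) were matched for 45 of the 55 genes, 23 G2/M genes with 24 windows and 22 S phase genes with 25 windows. The CHR motif TTTGAA, searched on both strands, was in 79.2% of the G2/M windows and 16% of the S phase windows, beside 17.9% of all 32851 windows. An E2F motif (TTTCCCGC, TTTCGCGC, TTTGCCGC or TTTGGCGC, both strands, neighbouring matches may overlap) was in 4.17% of the G2/M windows and 40% of the S phase windows, beside 2.26% of all windows. The CCAAT box, the motif of NF-Y, was in 83.3% of the G2/M windows, 68% of the S phase windows and 37.4% of all windows. CHR and CCAAT stood together in 70.8% of the G2/M windows, 12% of the S phase windows and 6.95% of all windows. CHR matches in G2/M windows began at a median of 3 bases after the start site, and E2F matches in S phase windows at a median of 106 bases before it (position -106). A match is a run of letters and not a measured site.

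**Figure D1:**
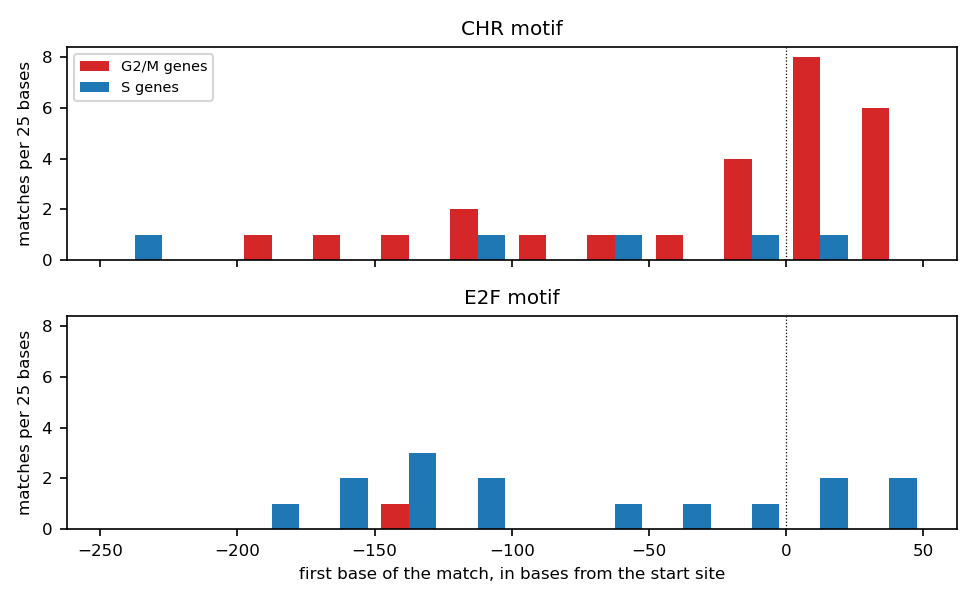
Position of motif matches in the promoter windows of cell cycle genes. The x axis is the first base of a match in bases from the start site, the y axis the number of matches per 25 bases, red bars are G2/M genes and blue bars S phase genes. CHR matches of G2/M genes gather around the start site (median 3), while E2F matches belong to S phase genes, with 1 match in a G2/M gene.

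The promoters of the 3 most abundant genes of each phase with the motif are shown because they carry these elements beside genes whose levels are followed below. Capitals mark the CHR matches in the G2/M promoters of Cdc20, Ccnb2 and Top2a.
Cdc20, chr4:118437294-118437593, minus strand: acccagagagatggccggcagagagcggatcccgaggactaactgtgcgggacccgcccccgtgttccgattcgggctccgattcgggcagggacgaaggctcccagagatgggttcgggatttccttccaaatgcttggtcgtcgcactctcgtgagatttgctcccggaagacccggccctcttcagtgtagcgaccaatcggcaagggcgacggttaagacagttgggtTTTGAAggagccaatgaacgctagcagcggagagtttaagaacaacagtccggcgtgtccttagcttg
Ccnb2, chr9:70421505-70421804, minus strand: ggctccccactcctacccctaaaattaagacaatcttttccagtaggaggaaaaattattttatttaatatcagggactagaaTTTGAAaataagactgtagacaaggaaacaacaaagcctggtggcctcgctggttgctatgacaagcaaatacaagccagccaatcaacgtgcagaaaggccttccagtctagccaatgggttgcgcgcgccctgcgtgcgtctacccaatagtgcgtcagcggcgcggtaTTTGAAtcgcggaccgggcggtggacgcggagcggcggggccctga
Top2a, chr11:99024140-99024439, minus strand: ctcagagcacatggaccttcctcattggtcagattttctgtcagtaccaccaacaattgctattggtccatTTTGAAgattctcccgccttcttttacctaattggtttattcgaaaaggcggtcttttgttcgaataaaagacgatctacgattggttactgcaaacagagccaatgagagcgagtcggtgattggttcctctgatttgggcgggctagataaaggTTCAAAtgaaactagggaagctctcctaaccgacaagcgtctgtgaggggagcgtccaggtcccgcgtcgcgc

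In the S phase promoters of Mcm6, Mcm3 and Mcm7, capitals mark the E2F matches. In Mcm6 a pair of matches on opposite strands overlaps and reads as 1 run of capitals.
Mcm6, chr1:128359656-128359955, minus strand: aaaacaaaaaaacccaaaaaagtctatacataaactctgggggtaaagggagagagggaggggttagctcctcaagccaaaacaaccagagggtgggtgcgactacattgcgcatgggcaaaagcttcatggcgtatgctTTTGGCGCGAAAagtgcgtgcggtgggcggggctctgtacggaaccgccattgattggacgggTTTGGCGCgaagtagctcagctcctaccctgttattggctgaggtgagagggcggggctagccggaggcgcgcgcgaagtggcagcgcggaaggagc
Mcm3, chr1:20820263-20820562, minus strand: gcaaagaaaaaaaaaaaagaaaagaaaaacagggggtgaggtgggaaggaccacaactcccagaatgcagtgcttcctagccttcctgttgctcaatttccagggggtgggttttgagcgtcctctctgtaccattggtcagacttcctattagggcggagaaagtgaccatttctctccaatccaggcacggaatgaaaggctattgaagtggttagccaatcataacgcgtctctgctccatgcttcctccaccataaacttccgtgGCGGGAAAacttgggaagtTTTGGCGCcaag
Mcm7, chr5:138171834-138172133, minus strand: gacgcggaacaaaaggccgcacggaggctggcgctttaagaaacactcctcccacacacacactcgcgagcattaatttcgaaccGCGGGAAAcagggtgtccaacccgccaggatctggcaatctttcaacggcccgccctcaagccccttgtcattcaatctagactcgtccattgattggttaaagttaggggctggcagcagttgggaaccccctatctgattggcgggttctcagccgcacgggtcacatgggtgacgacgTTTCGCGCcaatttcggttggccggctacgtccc

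The CHR match lay 18 bases before the start site in Cdc20 (position -18), at 5 and -167 in Ccnb2 and at -23 and -179 in Top2a. The E2F matches lay at -110, -106 and -47 in Mcm6, at 20 and 39 in Mcm3 and at -165 and 17 in Mcm7.

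Within each library the mean of the G2/M genes was below that of the S phase genes, except in control 3 with a pseudocount of 0.1 (0.05), and the distance between them differed widely among the libraries. The level of a phase is the mean of log2(FPKM + 1) over its genes. The G2/M level was 2.71, 4.10 and 2.29 in KO 1, 2 and 3, and 3.33, 3.28 and 3.77 in control 1, 2 and 3. The S phase level was 3.90, 4.49 and 3.62 in KO 1, 2 and 3, and 4.01, 3.73 and 3.78 in control 1, 2 and 3. The G2/M level spanned a wider range than the S phase level in both groups. The G2/M level minus the S phase level was -1.20, -0.38 and -1.33 in KO 1, 2 and 3, and -0.69, -0.45 and -0.0094 in control 1, 2 and 3. KO 1 and KO 3 thus had the widest distance, KO 2 lay inside the range of the controls, and in control 3 the phases were nearly level. The difference averaged -0.97 ± 0.51 in the KO libraries and -0.38 ± 0.34 in the controls (SD, n = 3 each), and the groups overlapped. As these scores run over a chosen list, no test was made of them. A common factor on all FPKM values of a library nearly cancels in this difference, which was also lowest in KO 1 and KO 3 with a pseudocount of 0.1, with quantile normalization and with medians in place of means.

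**Figure D2:**
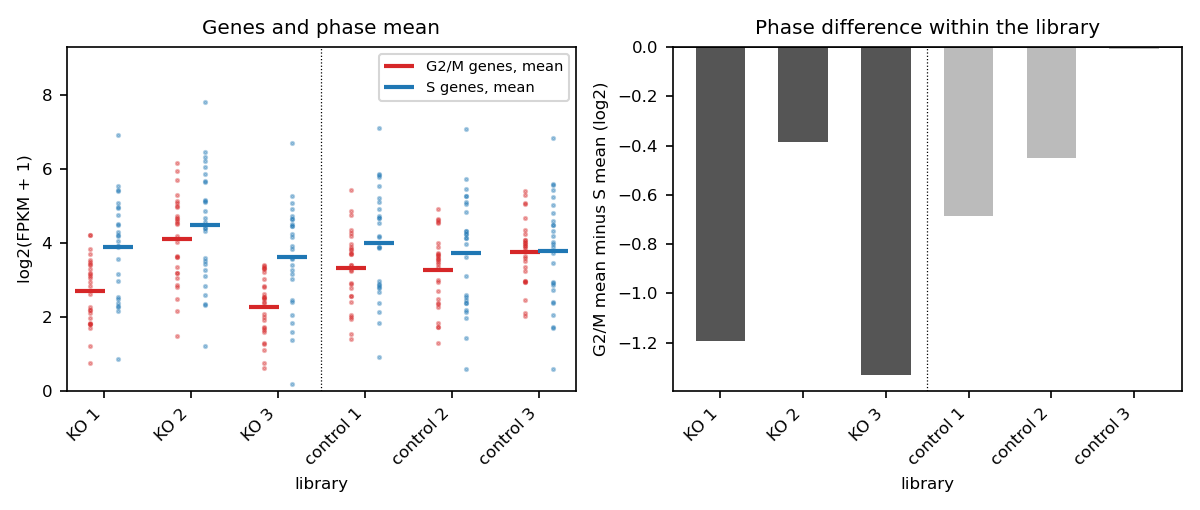
Level of the phases in each library. On the left, points are genes and bars are phase means in log2(FPKM + 1), with G2/M genes in red and S phase genes in blue. On the right, bars are the G2/M mean minus the S phase mean within the library (log2), between -1.33 in KO 3 and -0.0094 in control 3, with KO libraries dark and control libraries light grey.

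The same order was seen without logarithms. The median G2/M gene measured 6.45, 19.6 and 4.48 FPKM in KO 1, 2 and 3, and 9.65, 10.4 and 13.8 FPKM in control 1, 2 and 3. The median S phase gene measured 15.6, 22.6 and 13.3 FPKM in KO 1, 2 and 3, and 17.0, 16.5 and 14.8 FPKM in control 1, 2 and 3. The summed FPKM of the G2/M genes was 33.1%, 61.8% and 27.1% of the summed FPKM of the S phase genes in KO 1, 2 and 3, and 48.5%, 53.3% and 77.04% in control 1, 2 and 3. Ranked among the 13956 genes tested, the median G2/M gene stood at percentile 39.3, 76.9 and 31.9 in KO 1, 2 and 3, and 57.7, 64.2 and 70.3 in control 1, 2 and 3. The median S phase gene stood at percentile 68.3, 80.6 and 64.5 in KO 1, 2 and 3, and 72.7, 74.6 and 72.5 in control 1, 2 and 3. Percentiles also depend on the other genes. Their number at 1 FPKM or more was 18934, 12200 and 19268 in KO 1, 2 and 3, and 12559 to 13713 in the controls. The mean level of all genes tested was 3.45, 3.03 and 3.39 in KO 1, 2 and 3, and 3.02 to 3.23 in the controls. The part of this shift in the percentiles was not tested. KO 2 held the highest value of the 6 libraries for 21 G2/M and 23 S phase genes, or 44 of the 55. Control 3 was highest for 7 genes (Mki67, Bub1, Kif11, Hmmr, Anln, Ect2 and E2f8), KO 1 for 3 (Slbp, Dtl and Ccne2) and control 2 for Cdk1. KO 3 was the lowest library for 25 G2/M and 13 S phase genes. The share of all genes highest in KO 2 or lowest in KO 3 is not given here, so these counts are not read as particular to cell cycle genes. Of the 13956 genes tested, 6760 were higher and 7192 lower in KO 2 than the mean of KO 1 and KO 3.

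**Figure D3:**
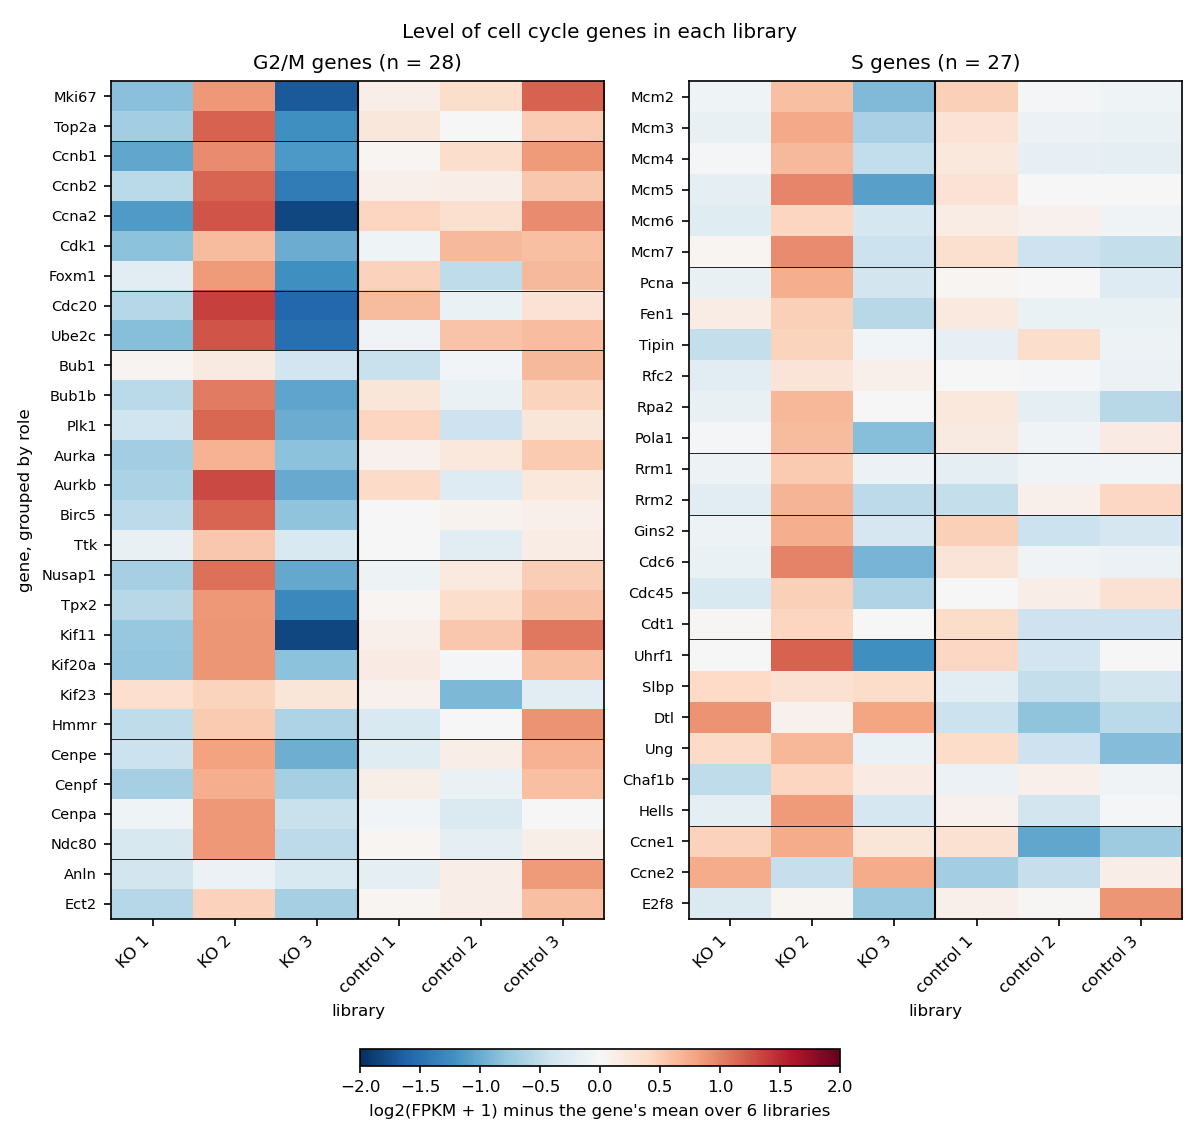
Level of each cell cycle gene relative to its own mean over the 6 libraries, in log2(FPKM + 1), with genes in rows grouped by role and libraries in columns, KO left of the line and control right of it. KO 2 is red for most genes and KO 1 and KO 3 are blue for most G2/M genes, while Slbp, Dtl and Kif23 are higher in every KO library than in every control.

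In the comparison of KO with control libraries, no cell cycle gene passed limma at an adjusted p of 0.05 over all genes, and 0% of the 13956 genes tested passed. A gene was tested if it had at least 1 FPKM in at least 3 libraries, which kept 54 of the 55 and left out Fen1. On the log2(FPKM + 1) scale, 24 of 28 G2/M genes had lower and 4 higher estimates in KO, with a median of -0.44. Of 26 S phase genes, 15 had higher and 11 lower estimates, with a median of 0.09, beside a median of 0.10 over all genes tested. After quantile normalization, which moved the median of all genes to -0.12, 27 of 28 G2/M genes were lower (median -0.72) and 16 of 26 S phase genes were lower (median -0.14). With limma-voom on implied reads, where 0 of 15585 genes passed and 1358 had an unadjusted p under 0.05, 17 of 28 G2/M genes were lower (median -0.05) and 22 of 27 S phase genes higher (median 0.21), beside a median of 0.12 over all genes. At an unadjusted limma p under 0.05 there were 3 S phase genes, all higher (Slbp, Dtl and Ccne1), and 0 G2/M genes, where 1646 genes or 11.8% of all genes tested were at that level. Groups did not overlap for 3 cell cycle genes, all higher in KO (Slbp, Dtl and Kif23), beside 6.70% of all genes that were higher without overlap and 9.44% that were lower without overlap. Kif23 was singled out after its values were seen.

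**Figure D4:**
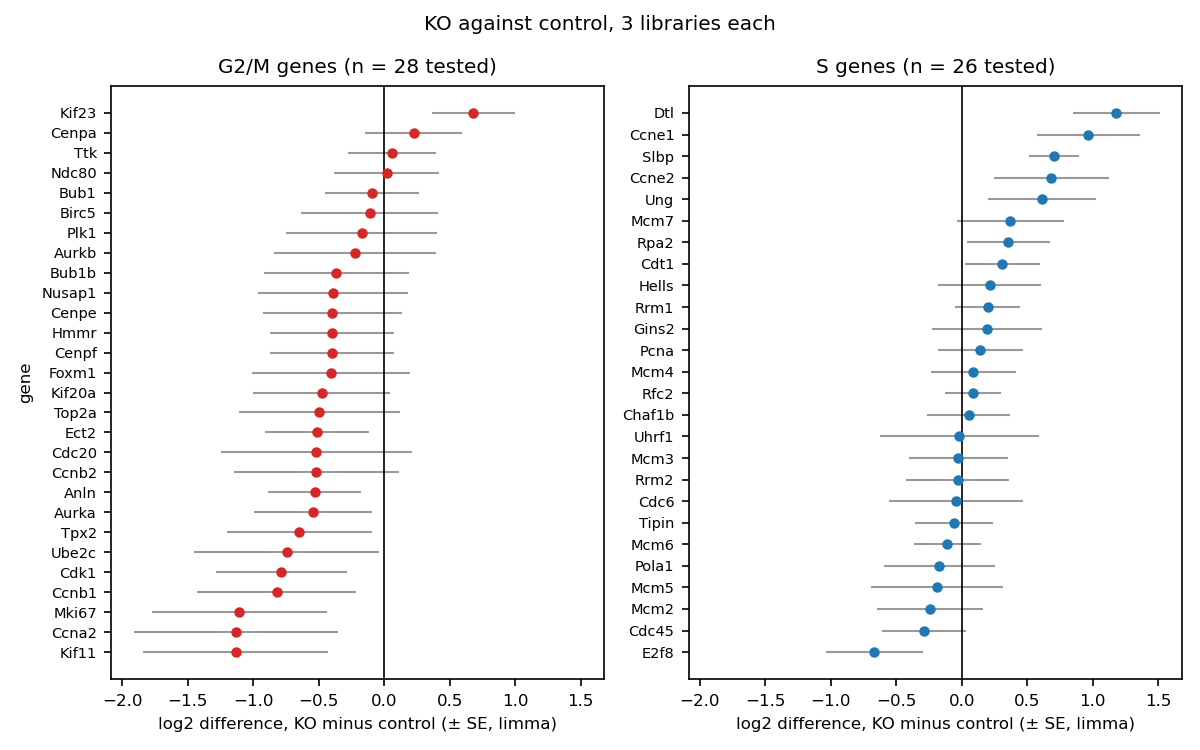
Log2 difference of each tested cell cycle gene, KO minus control on the log2(FPKM + 1) scale, with limma standard errors from 3 libraries per group. G2/M genes (left) lie mostly below 0, between -1.13 for Kif11 and 0.68 for Kif23, and S phase genes (right) on both sides of 0. No gene passed the test.

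The count of calls depended on KO 2 and control 1. Without KO 2, limma passed 1 cell cycle gene higher in KO (Dtl, log2 difference 1.43) and 5 lower, all of the G2/M set: Ccna2 (-2.04), Kif11 (-1.86), Mki67 (-1.81), Ube2c (-1.56) and Ccnb1 (-1.50). In that fit 12.1% of all genes passed higher and 0.960% lower, and the KO group was reduced to the libraries with the fewest reads and the highest receptor background. Without control 1, where 1.05% of all genes passed higher and 1.55% lower, 0 cell cycle genes passed. Without KO 1 and KO 3, 27 of 28 G2/M and 24 of 26 S phase genes were higher in KO 2 than the mean of the controls, with medians of 0.65 and 0.67. Without control 2 and 3, 22 of 28 G2/M and 15 of 26 S phase genes were lower, with medians of -0.34 and -0.10.

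Among the S phase genes, the MCM helicase subunits Mcm2 to Mcm7, which unwind DNA ahead of the fork, were all highest in KO 2, and all but Mcm7 were lowest in KO 3. Their mean level was 5.11, 5.93 and 4.56 in KO 1, 2 and 3, and 5.50, 5.11 and 5.05 in control 1, 2 and 3. Mcm6 measured 41.4, 66.1 and 37.9 FPKM in KO 1, 2 and 3, and 54.6, 51.8 and 46.3 FPKM in control 1, 2 and 3. KO 2 was the highest library and the other KO libraries the lowest, and the log2 difference was -0.11 (SE 0.26, limma adjusted p = 0.848). Mcm7 measured 46.0, 86.6 and 32.9 FPKM in KO 1, 2 and 3, and 56.2, 33.4 and 31.9 FPKM in control 1, 2 and 3, so the groups overlapped. A pseudogene with 97.7% identity over 72.7% of the Mcm7 transcript, Gm5487, could share its reads. Mcm2, Mcm3, Mcm4 and Mcm5 had limma log2 differences between -0.24 and 0.09.

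Cdc6 and Cdt1 load the helicase and Cdc45 and Gins2 activate it. Cdt1 was the most abundant of them, at 26.3, 34.8 and 25.9 FPKM in KO 1, 2 and 3, and 33.4, 19.0 and 19.0 FPKM in control 1, 2 and 3. Cdt1 was higher in every KO library than in control 2 and 3, and control 1 lay within the KO range. Cdc6 measured 4.25, 10.5 and 2.04 FPKM in KO 1, 2 and 3, and 4.30 to 5.88 FPKM in the controls, so the KO libraries spanned a wider range. Of the Gins2 exon bases, 67.3% are shared with Gse1 on the opposite strand, and the strand setting of the counting is not given, so the Gins2 values are uncertain. Cdc45 had a limma log2 difference of -0.29.

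Cyclin E, encoded by Ccne1 and Ccne2, starts S phase with Cdk2, and E2f8 represses E2F targets later in the phase. Ccne1 measured 15.6, 19.0 and 13.3 FPKM in KO 1, 2 and 3, and 13.9, 4.83 and 6.35 FPKM in control 1, 2 and 3. The KO libraries lay above control 2 and 3, and control 1 lay between KO 3 and KO 1. The log2 difference was 0.97 (SE 0.39, limma adjusted p = 0.417), and 0.18 without control 2 and 3. Ccne2 measured 11.0, 4.17 and 10.9 FPKM in KO 1, 2 and 3, and 3.38, 4.19 and 6.76 FPKM in control 1, 2 and 3, highest in KO 1 and KO 3. E2f8 ran the other way, at 3.87, 5.09 and 2.57 FPKM in KO 1, 2 and 3, and 5.37, 5.06 and 9.96 FPKM in control 1, 2 and 3. Of the exon bases, 17.4% of Ccne2 are shared with Ints8 and 11.2% of E2f8 with Gm2788, both on the opposite strand. The receptor background was also highest in KO 1 and KO 3, and its part in the Ccne2 values was not tested.

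Rrm1 and Rrm2 form ribonucleotide reductase, which makes deoxynucleotides. Rrm2 measured 30.1, 56.9 and 24.1 FPKM in KO 1, 2 and 3, and 24.9, 37.8 and 47.2 FPKM in control 1, 2 and 3, with a log2 difference of -0.03 (SE 0.39). Rrm1 measured 14.3, 22.6 and 14.1 FPKM in KO 1, 2 and 3, and 13.6 to 14.8 FPKM in the controls, so KO 2 alone stood apart.

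At the fork, Pcna, the sliding clamp of the polymerases, was the most abundant cell cycle gene, at 121, 224 and 104 FPKM in KO 1, 2 and 3, and 138, 135 and 113 FPKM in control 1, 2 and 3. KO 2 was highest and KO 3 lowest, with a log2 difference of 0.14 (SE 0.32), and a copy named Pcna-ps2 has 99.2% identity over 51.5% of its transcript. Rpa2, of the complex that covers single-stranded DNA, measured 18.8, 33.7 and 21.0 FPKM in KO 1, 2 and 3, and 24.4, 18.02 and 13.9 FPKM in control 1, 2 and 3. Rfc2, which helps to load the clamp, ranged between 14.2 and 20.4 FPKM in the KO libraries and between 15.5 and 17.0 FPKM in the controls. Fen1, a flap nuclease of lagging strand synthesis, had at most 1.32 FPKM in any library, but 78.8% of its exon bases lie opposite exons of Gm10143, so its low values are uncertain. Tipin, which stabilises the fork, and Pola1, the catalytic subunit of the polymerase that primes DNA synthesis, had limma log2 differences of -0.06 and -0.17.

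The chromatin, repair and histone mRNA genes included Slbp and Dtl, 2 of 26 tested S phase genes without overlap between the groups, a share near the 6.70% of all genes that were higher without overlap. Slbp, which binds the stem-loop of histone mRNAs, measured 21.5, 20.1 and 21.0 FPKM in KO 1, 2 and 3, and 13.9, 11.3 and 12.2 FPKM in control 1, 2 and 3. Every KO library was above every control and the KO libraries lay close together (20.8 ± 0.686 against 12.4 ± 1.32 FPKM, SD, n = 3 each). The log2 difference was 0.70 (SE 0.19, limma adjusted p = 0.417), between 0.64 and 0.78 when any library was left out. Dtl, the substrate receptor of the ligase that degrades Cdt1 in S phase, measured 7.91, 4.04 and 7.21 FPKM in KO 1, 2 and 3, and 2.56, 1.72 and 2.28 FPKM in control 1, 2 and 3. All KO libraries were above all controls, KO 2 the least, and the log2 difference was 1.18 (SE 0.33, limma adjusted p = 0.417). The mean of the receptor background beside it was 0.992, 0.0188 and 1.05 FPKM in KO 1, 2 and 3, and its part in the Dtl values was not tested. Uhrf1, which recruits the maintenance DNA methyltransferase to new DNA, measured 22.0, 50.7 and 8.67 FPKM in KO 1, 2 and 3, and 29.3, 16.5 and 21.6 FPKM in control 1, 2 and 3. KO libraries held both its highest and its lowest value, and a copy named Gm5648 has 98.3% identity over 44.3% of the Uhrf1 transcript. Ung, a uracil glycosylase of base repair, Hells, a chromatin remodeller, and Chaf1b, of the assembly factor for new chromatin, had limma log2 differences between 0.05 and 0.61.

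The G2/M genes spread more widely among the KO libraries than the S phase genes, with SDs of their levels of 0.95 and 0.44 (n = 3). Ccna2, the A-type cyclin of S phase and G2, measured 3.87, 24.5 and 2.04 FPKM in KO 1, 2 and 3, and 13.4, 12.4 and 19.6 FPKM in control 1, 2 and 3. KO 2 was above all controls, and KO 1 and KO 3 were below all of them. In KO 3 the value rested on 25 implied reads, with an exact Poisson interval (95%, counting error only) of 1.32 to 3.01 FPKM, which ended below the controls. The interval does not cover background or reads of Exosc9, which shares 12.5% of the Ccna2 exon bases on the opposite strand. The log2 difference was -1.13 (SE 0.78, limma adjusted p = 0.486), -2.04 without KO 2 and -0.51 without KO 3. Ccnb2, a B-type cyclin that activates Cdk1 at mitosis, measured 17.8, 60.3 and 9.35 FPKM in KO 1, 2 and 3, and 28.2, 29.1 and 38.7 FPKM in control 1, 2 and 3. It showed the same order, as did Ccnb1, at 3.61, 17.2 and 3.24 FPKM in KO 1, 2 and 3, and 8.63 to 15.9 FPKM in the controls, although annotated Ccnb1 copies of up to 99.2% identity could share reads. Cdk1, the mitotic kinase, measured 3.56, 11.4 and 3.04 FPKM in KO 1, 2 and 3, and 6.56 to 11.6 FPKM in the controls.

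Foxm1, the transcription factor that drives many G2/M genes, measured 3.30, 8.11 and 1.16 FPKM in KO 1, 2 and 3, and 5.94, 2.57 and 6.90 FPKM in control 1, 2 and 3. KO 2 was highest, KO 3 lowest and KO 1 inside the control range, with a log2 difference of -0.40 (SE 0.60, limma adjusted p = 0.752).

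Mki67, the proliferation marker that coats mitotic chromosomes, measured 9.56, 33.2 and 4.86 FPKM in KO 1, 2 and 3, and 19.6, 23.0 and 41.8 FPKM in control 1, 2 and 3. KO 2 lay inside the control range, KO 1 and KO 3 below it, and the log2 difference was -1.11 (SE 0.67, limma adjusted p = 0.446), -1.81 without KO 2 and -0.54 without KO 3. Top2a, the topoisomerase that untangles sister chromatids, measured 13.4, 51.5 and 8.86 FPKM in KO 1, 2 and 3, and 26.1, 22.3 and 32.1 FPKM in control 1, 2 and 3. Here KO 2 exceeded all controls, and the log2 difference was -0.50 (SE 0.61), -1.21 without KO 2, -0.28 without KO 1 and -0.004 without KO 3.

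Cdc20, an activator of the anaphase-promoting complex, the ligase that ends mitosis, measured 17.7, 71.3 and 8.37 FPKM in KO 1, 2 and 3, and 42.2, 24.3 and 33.0 FPKM in control 1, 2 and 3. Ube2c, its ubiquitin-conjugating enzyme, measured 8.21, 38.8 and 4.86 FPKM in KO 1, 2 and 3, and 14.9, 23.7 and 24.7 FPKM in control 1, 2 and 3. Both were highest in KO 2 and lowest in KO 3. Of the Ube2c exon bases, 22.8% are shared with Tnnc2 on the opposite strand. An annotated copy of Cdc20, Gm7856, has 93.6% identity over 83.3% of the Cdc20 transcript and could share its reads.

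Of 7 mitotic kinase and checkpoint genes, all but Bub1 were highest in KO 2. Aurkb, the kinase of the chromosomal passenger complex, measured 8.04, 34.0 and 5.99 FPKM in KO 1, 2 and 3, and 17.3, 10.8 and 15.2 FPKM in control 1, 2 and 3. Aurka, which acts at the spindle poles, measured 5.20, 15.4 and 4.73 FPKM in KO 1, 2 and 3, and 9.64, 10.6 and 13.5 FPKM in control 1, 2 and 3. In both, KO 2 was above and KO 1 and KO 3 were below all controls. Birc5, the survivin subunit of the passenger complex, measured 8.85, 30.9 and 7.14 FPKM in KO 1, 2 and 3, and 13.2 to 14.2 FPKM in the controls. Plk1, a kinase of mitotic entry, measured 9.84, 30.8 and 6.21 FPKM in KO 1, 2 and 3, and 9.78 to 18.4 FPKM in the controls. The limma log2 differences were -0.11 for Birc5 and -0.17 for Plk1. An annotated copy of Plk1, Plk-ps1, has 93.4% identity over 82.4% of the Plk1 transcript. Bub1, Bub1b and Ttk, of the spindle checkpoint, had limma log2 differences between -0.37 and 0.06.

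Of the spindle genes, Tpx2, which nucleates spindle microtubules, measured 7.63, 22.2 and 4.20 FPKM in KO 1, 2 and 3, and 12.0, 15.1 and 18.1 FPKM in control 1, 2 and 3. Kif11, the kinesin that separates spindle poles, measured 2.24, 9.21 and 0.553 FPKM in KO 1, 2 and 3, and 4.94, 6.98 and 10.5 FPKM in control 1, 2 and 3. In KO 3 Kif11 rested on 12 implied reads, with an exact Poisson interval of 0.286 to 0.965 FPKM, and KO 1 and KO 3 were below all controls. Kif23, a kinesin of the central spindle, departed from this pattern at 10.3, 11.3 and 9.60 FPKM in KO 1, 2 and 3, and 8.54, 3.83 and 6.77 FPKM in control 1, 2 and 3. All KO libraries were above all controls, with a log2 difference of 0.68 (SE 0.32, limma adjusted p = 0.417). Nusap1 and Hmmr, which bind spindle microtubules, and Kif20a, a kinesin of cytokinesis, had limma log2 differences between -0.48 and -0.39, and 29.3% of the Kif20a exon bases are shared with Cdc23 on the opposite strand.

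Cenpf, a large kinetochore protein, was the lowest G2/M gene on average, at 0.701, 3.47 and 0.690 FPKM in KO 1, 2 and 3, and 1.93, 1.45 and 3.10 FPKM in control 1, 2 and 3. Ndc80, which holds microtubules at the kinetochore, measured 10.6, 25.6 and 9.07 FPKM in KO 1, 2 and 3, and 13.9, 11.9 and 14.7 FPKM in control 1, 2 and 3. In both, KO 2 was above all controls and KO 1 and KO 3 were below them. Cenpa, the centromeric histone, was at 24.0 FPKM in KO 2 and at 9.14 to 12.8 FPKM in the other 5 libraries, and Cenpe, a kinetochore kinesin, had a limma log2 difference of -0.40. The cytokinesis genes were highest in control 3. Anln, which links the contractile ring to the membrane, measured 1.35, 1.81 and 1.47 FPKM in KO 1, 2 and 3, and 1.68, 2.34 and 4.52 FPKM in control 1, 2 and 3. Ect2, which activates RhoA for the ring, measured 2.50, 6.11 and 2.29 FPKM in KO 1, 2 and 3, and 4.34, 4.66 and 6.85 FPKM in control 1, 2 and 3, and KO 2 overlapped the controls for both.

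Libraries of the same genotype also differed, and unequally over the phases. On the log2(FPKM + 1) scale, KO 2 exceeded the mean of KO 1 and KO 3 for all 28 G2/M genes (median 1.74) and for 23 of 26 S phase genes (median 0.82), beside a median of -0.03 over all genes tested. The exceptions were Slbp (-0.07), Dtl (-0.76) and Ccne2 (-1.20). Among the controls, control 3 exceeded control 1 for 24 of 28 G2/M genes (median 0.47) and for 7 of 26 S phase genes (median -0.26), beside a median of -0.21 over all genes. Control 2 minus control 1 had medians of 0.06 for G2/M genes, -0.30 for S phase genes and -0.20 over all genes. These are descriptions of single libraries with no test.

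**Figure D5:**
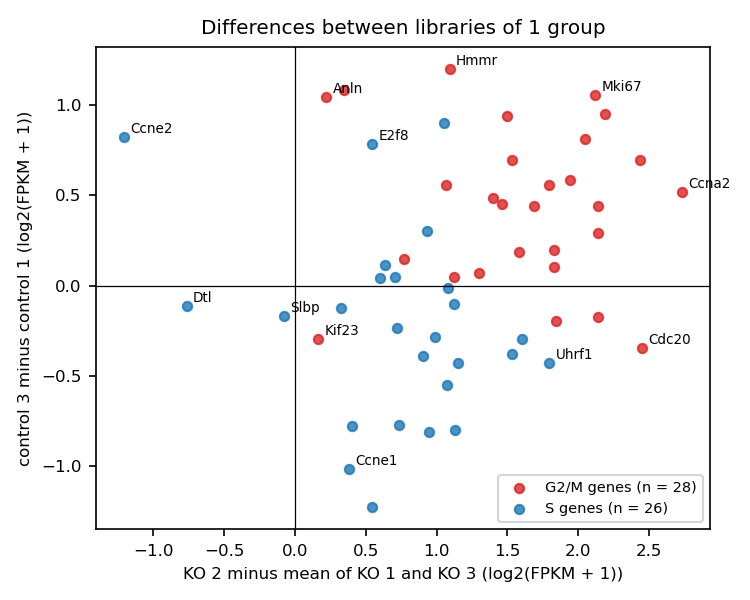
Differences between libraries of the same genotype for each tested cell cycle gene, in log2(FPKM + 1). The x axis is KO 2 minus the mean of KO 1 and KO 3, the y axis control 3 minus control 1, red points are 28 G2/M genes and blue points 26 S phase genes. G2/M genes lie furthest right and mostly above 0, while most S phase genes lie below 0 on the y axis.

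Other genes of the pathway were read from lists that hold none of the 55. Of 32 other mitotic genes tested, 21 had lower and 11 higher estimates in KO (median -0.17, beside 0.10 over all genes tested), and 0 passed limma over all genes. Groups did not overlap for 2 of the 32, both higher, a share near the 6.70% of all genes that were higher without overlap. Their direction turned without KO 1 and KO 3, where 32 of 32 were higher (median 0.58), and on implied reads with limma-voom (median 0.08). Of 32 other replication genes, 23 had higher and 9 lower estimates (median 0.28), and 0 passed. Groups did not overlap for 9 of the 32, all higher, beside 6.70% of all genes higher and 9.44% lower without overlap. The list had 16 higher and 16 lower estimates after quantile normalization, and 15 higher and 17 lower without KO 2 (median -0.002). Without KO 1 and KO 3, 32 of 32 replication genes were also higher (median 0.66). With limma-voom on implied reads 28 were higher and 4 lower (median 0.45). Prim2, a primase subunit, measured 13.0, 8.22 and 13.6 FPKM in KO 1, 2 and 3, and 5.25, 4.82 and 4.94 FPKM in control 1, 2 and 3. Gins4, of the active helicase, measured 41.2, 42.0 and 44.7 FPKM in KO 1, 2 and 3, and 33.2, 28.7 and 24.8 FPKM in control 1, 2 and 3. For both genes every KO library was above every control, and neither passed (limma adjusted p = 0.417), while Prim2 passed without KO 2. Cdc25b, a phosphatase that activates Cdk1, measured 47.2, 36.3 and 36.7 FPKM in KO 1, 2 and 3, and 32.9, 6.93 and 7.62 FPKM in control 1, 2 and 3. Its relative Cdc25c measured 44.0, 5.68 and 51.3 FPKM in KO 1, 2 and 3, and 5.08 to 6.005 FPKM in the controls, so KO 1 and KO 3 alone stood apart. Cdc25c passed limma without KO 2 and Cdc25b without control 1, and neither passed with all libraries. Without KO 2, 12.1% of all genes passed higher. Of the 814 receptor genes of the background, 14 were tested, and 13 of these passed higher without KO 2. The filter of 1 FPKM in 3 libraries favoured receptor genes high in KO 1 and KO 3, so nothing is concluded from that count. Without control 1, 1.05% of all genes passed higher. The part of the receptor background in the Prim2 and Cdc25c values was not tested.

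The regulators upstream of both waves, and the constitutive subunits of the anaphase-promoting complex, showed no common direction. Of 12 G1 cyclins, kinases and E2F factors tested, 4 had higher and 8 lower estimates (median -0.30, and 0.25 without KO 1 and KO 3). Tfdp2, a partner of E2F factors, measured 4.98, 2.66 and 5.29 FPKM in KO 1, 2 and 3, and 2.07, 1.89 and 2.03 FPKM in control 1, 2 and 3, and Tfdp1 measured 23.6, 47.9 and 20.3 FPKM in KO 1, 2 and 3, and 30.4, 65.6 and 70.5 FPKM in control 1, 2 and 3. Of 8 CDK inhibitors and pocket proteins, 3 had higher and 5 lower estimates (median -0.19, and 0.20 without KO 1 and KO 3). Cdkn1a, the p21 inhibitor of cyclin-dependent kinases, measured 34.7, 18.01 and 26.2 FPKM in KO 1, 2 and 3, and 38.9, 81.9 and 57.9 FPKM in control 1, 2 and 3, lower in each KO library than in any control (log2 difference -1.13, SE 0.36, limma adjusted p = 0.417). Cdkn2d, the p19 inhibitor of Cdk4 and Cdk6, measured 48.3, 67.7 and 60.9 FPKM in KO 1, 2 and 3, and 48.7, 30.8 and 41.7 FPKM in control 1, 2 and 3. The values of Cdkn1a were highest in control 2 and 3, where granulocyte and erythroid markers were high, and the part of those cells was not tested. Of 6 genes of the MuvB core and B-Myb, 4 had higher and 2 lower estimates (median 0.12, and -0.17 after quantile normalization), with Lin37 at 31.0, 27.3 and 33.1 FPKM in KO 1, 2 and 3, and 26.2, 18.8 and 16.2 FPKM in control 1, 2 and 3. Lin54, the subunit that binds CHR elements, measured 4.77, 3.71 and 4.06 FPKM in KO 1, 2 and 3, and 4.54, 5.61 and 7.66 FPKM in control 1, 2 and 3. Of 15 constitutive subunits of the anaphase-promoting complex, 10 had higher and 5 lower estimates (median 0.11, and -0.09 after quantile normalization). The pair with the smallest p were Cdc26, at 11.0, 8.46 and 11.2 FPKM in KO 1, 2 and 3, and 5.55 to 7.43 FPKM in the controls, and Anapc15, at 2.10 to 2.72 FPKM in the KO libraries and 1.25 to 1.48 FPKM in the controls. In all 4 of these lists 0 genes passed limma over all genes. The receptor background was highest in KO 1 and KO 3, and its part in the Tfdp2, Cdc26 and Anapc15 values was not tested.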

How the data were processed

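Per the labels' protocols, frozen splenic CD8+ T cells were lysed in Trizol and the RNA went into NEBNext Ultra libraries. Tools listed in the submitters' processing notes are HISAT2 2, Bowtie2 2.2.3 and HTSeq 0.6.0, beside the build mm8, their roles unstated. The deposited values are FPKM by the authors, a unit read from the values, and how they were made is not given in the sources used here.

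Of 35458 identifiers, 35358 matched GENCODE M21, from which symbols, exon lengths and exon overlaps were taken. FPKM times exon length took whole-number values after division by a constant fitted to each library (92.1% to 93.4% of values under 200 implied reads within 0.02 of a whole number), which gave approximate depths. Testing was limited to genes reaching 1 FPKM in 3 or more libraries, on log2(FPKM + 1), which understates changes of low genes, with limma 3.58.1 (R 4.3.3), an intensity trend and Benjamini-Hochberg adjustment over 13956 genes at 0.05. The smallest p of an exact permutation test of 3 against 3 libraries is 0.1, so none was used. The procedure was tested on simulated data that lacked the uneven background and the library differences seen here. That run therefore gives no power or error rate for these libraries. Copies were sought with minimap2 2.31-r1302 in annotated transcripts, and promoters came from RefSeq (GRCm38.p6). Copies not mentioned above were Gm9577 for Mcm4, Gm6593 for Rrm2 and Gm8956 for Ube2c, at 90.1% to 93.8% identity.

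The members and lists were chosen with earlier results of these data known. Genes given for every library were, in each role, the most abundant and the one with the largest difference, those at an unadjusted p under 0.05, and Mki67, Top2a and Foxm1. Ccnb1, Cdk1, Cdc6, Ccne2, E2f8, Rfc2, Fen1, Birc5, Plk1, Cenpa and Kif23 were given values after these were seen. From each other list the 2 genes with the smallest p were given. Alternatives were quantile normalization, dropping the filter, a pseudocount of 0.1, a replicate block, protein-coding genes only, limma-voom on implied reads, medians in place of means, tested genes only, and libraries left out singly or in pairs. Python 3.11.15, numpy 2.4.6, pandas 2.3.3, scipy 1.17.1 and matplotlib 3.10.9 were used.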

Additional observations from a re-analysis of the deposited data

How the results depend on the processing

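The number of genes past the threshold was 0 with all libraries and in every fit with all 6 libraries, including the fit with the replicate block, and between 0 and 1821 when 1 library was left out (1821 without KO 2 and 363 without control 1). The labels number the libraries 1 to 3 in both groups, but deviations from the group means correlated at r = 0.112, 0.02 and 0.018 over genes between same-numbered libraries, so the numbers were not taken as a pairing. The replicate block left 0 genes and 0 cell cycle genes called.

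The S phase level, KO minus control, was 0.16, against -0.05 after quantile normalization (tested members), -0.01 without control 2 and 3, 0.64 without KO 1 and KO 3, and -0.08 to 0.35 with 1 library left out. The G2/M level, KO minus control, was -0.43, against 0.64 without KO 1 and KO 3, -0.70 after quantile normalization, -0.29 without control 2 and 3, and -0.96 to -0.05 with 1 library left out. The phase difference, KO minus control, was -0.59, against -0.002 without KO 1 and KO 3, -0.28 without control 2 and 3, and -0.88 to -0.40 with 1 library left out.

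Of the 54 tested genes, 34 changed sign without KO 1 and KO 3 (23 G2/M and 11 S phase genes) and 12 without control 2 and 3 (4 G2/M and 8 S phase genes). Log2 differences that changed sign are given here for the 26 genes chosen by rule. Without KO 1 and KO 3 they were 0.37 for Mcm6, 0.67 for Rrm2, 1.18 for Uhrf1, 0.31 for Mki67, 0.93 for Top2a, 0.91 for Ccnb2, 0.69 for Ccna2, 1.12 for Cdc20, 0.43 for Aurka, 1.20 for Aurkb, 0.54 for Tpx2, 0.32 for Kif11, 0.53 for Cenpf, 0.88 for Ube2c, 0.20 for Ect2 and 0.65 for Foxm1. Without control 2 and 3 they were -0.14 for Mcm7, 0.46 for Rrm2, -0.21 for Cdt1, -0.04 for Rpa2 and -0.03 for Ndc80. With limma-voom they were 0.05 for Rrm2, 0.12 for Uhrf1, 0.25 for Aurkb and 0.10 for Foxm1, and after quantile normalization -0.22 for Ndc80. With 1 library left out, the ranges that crossed 0 were -0.35 to 0.04 for Mcm6, -0.01 to 0.68 for Mcm7, -0.19 to 0.36 for Pcna, -0.02 to 0.31 for Rrm1, -0.38 to 0.22 for Rrm2, -0.62 to 0.59 for Uhrf1, -1.23 to 0.05 for Ccnb2, -1.33 to 0.14 for Cdc20, -0.94 to 0.23 for Aurkb, -0.41 to 0.29 for Ndc80 and -0.93 to 0.11 for Foxm1. Among genes that kept their sign, the ranges were -1.86 to -0.50 for Kif11, -1.25 to -0.17 for Tpx2, -1.56 to -0.18 for Ube2c, -1.03 to -0.27 for Aurka and -0.87 to -0.16 for Cenpf. Outside the 26 genes, Ccnb1 was 0.54, Cdk1 0.24, Birc5 1.11, Plk1 1.06, Cdc6 0.98 and Ccne2 -0.12 without KO 1 and KO 3. The cause was not tested. KO 1 and KO 3 were the shallowest libraries, with a median of 74.5 and 42 implied reads per G2/M gene. The lowest G2/M gene in KO 3 had 12 implied reads. The part of depth in the sign changes was not tested.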

Other observations

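Within the G2/M set, the 18 genes whose promoter window held the CHR motif had a median of 1.50 for KO 2 minus the mean of KO 1 and KO 3 (log2(FPKM + 1)), and the 5 whose window did not (Ccnb1, Bub1, Birc5, Nusap1 and Cenpe) had a median of 1.83. Within the S phase set, the medians were 1.13 for 10 genes with an E2F match and 0.66 for 12 without. These values are descriptions with no test.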
